A study of Rattus norvegicus with 12 samples.

Results

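The transcripts described here are the noncoding RNAs with measurable coverage in cultured rat cortical neurons. They are the entries of the deposited 12-library table whose RefSeq accession starts with NR_, RefSeq's prefix for noncoding transcripts, together with the entry LOC102723236, the RNA of the signal recognition particle. An entry was kept where its mean over the 12 libraries reached 10 read equivalents, a read equivalent being coverage worth 1 read of 42 nt after the authors' size factor. This left 131 entries for 114 gene symbols, out of 665 distinct noncoding entries and 18697 distinct entries in all, and 534 noncoding entries fell below the threshold. The mean level in these libraries therefore chose the members, and it is not a result. The last entries kept were Mir6318 at a mean of 10.5, Tnxa-ps1 at 10.2 and Mir18a at 10.1 read equivalents, and the first left out were Mir1843b at 9.99 and both Lnc016 entries at 9.61 and 9.53.

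The libraries came from primary cortical neuron cultures of Wistar rats at embryonic day 18, with 3 libraries in each of 4 groups: wild-type untreated, wild-type with TTX, Ehmt1 shRNA knockdown untreated, and Ehmt1 shRNA knockdown with TTX. TTX, or tetrodotoxin, blocks the sodium channels that carry action potentials and so silences a culture, and Ehmt1 is a histone methyltransferase that places the repressive mark on lysine 9 of histone H3. A control hairpin for the shRNA is not named in the labels, so the wild-type groups may lack what delivery of a hairpin does to a culture, and the dose and duration of TTX are not given in the sources used here. Libraries of one genotype with the same replicate number are called a culture below, which was inferred from their likeness and is not stated in the labels. Where nothing says that replicates came from separate animals, p-values measure only the spread between these samples.

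Ehmt1 was measured at 1772, 1586 and 1599 read equivalents in the untreated wild-type libraries and at 2039, 1739 and 1839 in those with TTX. Knockdown libraries held 1044, 1535 and 1037 untreated and 1187, 1519 and 1162 with TTX, so knockdown culture 2 lies nearest to wild-type, and the mean of the knockdown cultures was 70.8% of the wild-type mean (exact two-sided permutation test over 3 cultures a genotype, p = 0.1, the smallest this design can give). Coverage before the size factor, summed over all deposited entries with exact duplicates included, was worth 15108848 to 24787516 reads of 42 nt a library. Isoforms of a gene share exons, so these sums count some coverage repeatedly and are not numbers of reads sequenced. All 6 neuron markers were present, with summed levels of 52484 to 107422, but astrocyte markers summed to 80764 to 145143 and oligodendrocyte lineage markers to 22284 to 55982, so RNA of glial genes was present beside that of neurons. In bulk libraries fewer cells of a type and less RNA per cell cannot be told apart.

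Noncoding RNAs work as RNA. Structured ones act inside particles: 7SL RNA is the scaffold of the signal recognition particle, which takes secreted and membrane proteins to the endoplasmic reticulum, RNase MRP RNA cuts precursors of ribosomal RNA, telomerase RNA is the template for telomere repeats, and Bc1 is a rodent neuronal RNA found in dendrites that represses translation. MicroRNAs are cut from hairpins in longer transcripts, and the seed near the 5′ end pairs with target mRNAs. Small nucleolar RNAs, or snoRNAs, guide the modification of ribosomal RNA and are cut from the introns of host genes such as Gas5, whereas long noncoding RNAs such as Meg3, an imprinted and maternally expressed gene, Miat and Tug1 are spliced transcripts abundant in brain.

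The 131 entries were classed by lists of names, by name patterns and, for some, by RefSeq type. They fell into 5 for small structured RNAs, 4 ribosomal RNAs, 22 microRNA hairpins, 3 named snoRNA host genes and 1 imprinted locus. The rest were 5 named long noncoding RNAs, 7 pseudogenes, 42 other noncoding transcripts and 42 noncoding isoforms of protein-coding genes. LOC100912071 and LOC100910973, called long noncoding RNAs below, were counted among the other noncoding transcripts. The table holds 476 microRNA hairpins in all. RefSeq (GRCr8) matched 123 entries by accession and 6 by symbol, and 2 were unmatched.

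The mature microRNAs below belong to the hairpins whose values are described most closely here, and capitals mark the seed, bases 2 to 8. RefSeq gives a mature sequence for 21 of the 22 hairpins, 17 to 24 nt long and shorter than the 42-nt read, so the value of such a hairpin is coverage of longer RNA across it and not a level of the microRNA. The seeds of miR-9a and miR-9b differ, and Mir3597-1, Mir3597-2 and Mir3597-3 share the miR-9b-5p seed.
rno-miR-9a-5p: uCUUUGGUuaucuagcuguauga
rno-miR-9a-3p: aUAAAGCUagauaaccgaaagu
rno-miR-9b-5p: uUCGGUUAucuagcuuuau
rno-miR-9b-3p: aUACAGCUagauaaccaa
rno-miR-22-5p: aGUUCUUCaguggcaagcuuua
rno-miR-22-3p: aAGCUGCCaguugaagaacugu
rno-miR-770-5p: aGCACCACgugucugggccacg
rno-miR-6321: uACUGCAGugaguucuaugaagc

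The Mir3597 hairpins lie on the strand opposite the miR-9 genes, which is shown by the Mir3597-1 hairpin at chr2:175974962-175975069 on the minus strand of GRCr8. Its capitals mark the 89 bases, from base 11 of 108, that are the exact reverse complement of the Mir9-1 hairpin at chr2:175974971-175975059 on the plus strand. In the same way Mir3597-2 holds the complement of Mir9-2 over 87 of 118 bases and Mir3597-3 that of Mir9-3 over 90 of 115.
Mir3597-1: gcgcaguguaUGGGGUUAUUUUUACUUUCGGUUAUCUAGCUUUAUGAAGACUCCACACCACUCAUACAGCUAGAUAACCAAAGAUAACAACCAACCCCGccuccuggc

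Promoter windows of 300 bases, 250 before and 50 after the RefSeq start, are shown for 4 long transcripts that the results return to: Meg3, whose hairpin Mir770 is also a member, the snoRNA host Gas5, and LOC100910973 and LOC100912071, which responded to TTX. Capitals mark matches on either strand to 5 motifs: TGACGTCA, the full cyclic AMP response element or CRE, TGACG, its core, TGANTCA, the AP-1 site, CCAAT and TATAAA. The full CRE holds the core on both strands. A match is a description and not a site of binding.
Meg3, chr6:134273806-134274105 (+): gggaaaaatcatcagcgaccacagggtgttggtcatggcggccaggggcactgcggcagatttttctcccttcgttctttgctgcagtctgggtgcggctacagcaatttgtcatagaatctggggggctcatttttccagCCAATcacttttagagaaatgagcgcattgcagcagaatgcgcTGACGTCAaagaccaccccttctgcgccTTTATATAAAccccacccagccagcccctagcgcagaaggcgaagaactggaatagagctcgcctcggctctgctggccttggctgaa
Gas5, chr13:75836713-75837012 (+): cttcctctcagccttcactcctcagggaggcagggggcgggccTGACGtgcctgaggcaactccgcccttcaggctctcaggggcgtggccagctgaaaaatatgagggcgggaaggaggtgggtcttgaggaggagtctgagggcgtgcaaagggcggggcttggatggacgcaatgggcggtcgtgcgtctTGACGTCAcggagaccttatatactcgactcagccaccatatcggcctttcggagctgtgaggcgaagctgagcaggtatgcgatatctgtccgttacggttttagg
LOC100910973, chr1:217133198-217133497 (-): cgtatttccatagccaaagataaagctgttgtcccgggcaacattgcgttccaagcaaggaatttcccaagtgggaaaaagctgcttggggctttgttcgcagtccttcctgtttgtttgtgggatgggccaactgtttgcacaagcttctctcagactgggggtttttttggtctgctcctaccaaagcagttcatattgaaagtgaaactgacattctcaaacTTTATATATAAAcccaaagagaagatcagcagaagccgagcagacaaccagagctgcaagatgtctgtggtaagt
LOC100912071, chr1:163983453-163983752 (-): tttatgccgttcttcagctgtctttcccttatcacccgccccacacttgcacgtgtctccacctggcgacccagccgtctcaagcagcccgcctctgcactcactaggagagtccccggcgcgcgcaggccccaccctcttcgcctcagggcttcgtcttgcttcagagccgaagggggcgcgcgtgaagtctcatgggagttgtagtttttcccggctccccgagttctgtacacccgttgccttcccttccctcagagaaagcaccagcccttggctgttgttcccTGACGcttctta

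A full CRE starts 66 bases before the Meg3 start and 57 bases before the Gas5 start. It was present in 3 of the 85 member promoters in the RefSeq table, the other being Lnc134, and in 1.83% of all 33469 promoters. TATAAA matched 38 and 34 bases before the Meg3 start and 25 and 19 bases before that of LOC100910973, against 14.2% of all promoters with a match. LOC100912071 held only the CRE core, 38 bases after its start, which 21.2% of all promoters held. CCAAT was in 30 and the AP-1 letters in 4 of the 85, against 37.5% and 7.33% of all.

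Together the members took 2.33% to 7.58% of all read equivalents in a library, and most of that was one RNA. The 7SL entries took 1.30% to 6.43%, Rmrp 0.0826% to 0.796% and Bc1 0.0630% to 0.717%. Noncoding isoforms took 0.295% to 0.379%, and the 22 hairpins 0.00303% to 0.00450%. Per length, mean levels were 200520 read equivalents per 100 nt for the first 7SL entry, 35689 for Bc1, 27450 for Rmrp and 36.6 for Terc.

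Members varied between libraries by their class. The SD of log2 level over the 12 libraries had a median of 0.35 among members, against 0.26 over all 12938 entries tested. Ribosomal RNAs had a median SD of 1.23, small structured RNAs 0.94, hairpins 0.45 and noncoding isoforms 0.26, and the steadiest member was a Dcaf11 isoform at 0.07. The sources used here do not say in which libraries RNA extraction, rRNA removal or sequencing lanes were shared, so the part these steps had in the spread was not tested.

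7SL RNA was the most abundant member, and its genotypes did not overlap. RefSeq gives LOC102723236 (NR_110377) the symbol Rn7sl1, and the table holds 2 entries under that accession without saying which locus is which. The first entry measured 1336770, 611641 and 846544 read equivalents in untreated wild-type and 790661, 702684 and 895994 with TTX, against 288332, 375316 and 282255 in untreated knockdown and 255199, 342674 and 466565 with TTX. Every one of the 6 knockdown libraries lay below every one of the 6 wild-type libraries. The second entry, at much lower coverage, measured 2893, 2276 and 2890 in untreated wild-type and 2174, 2410 and 3054 with TTX, against 552, 1009 and 534 and then 471, 838 and 871 in knockdown. Here too the genotypes did not overlap.

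Averaged within cultures, the first 7SL entry was at 864050 ± 203374 in wild-type and 335057 ± 55351 in knockdown (SD, n = 3 cultures), or 38.8% of wild-type, with an exact permutation p of 0.1. The second was at 2616 ± 322 and 712 ± 206 (SD, n = 3 cultures), or 27.2%, also with an exact permutation p of 0.1, and 0.1 is the smallest p that 3 cultures a genotype allow. Genotypes that do not overlap always give this p, and 7SL was named with earlier results of these data known. The permutation p is therefore a description and adds no support. In limma over all entries the log2 difference was -1.35 ± 0.36 (SE, adjusted p = 0.652) for the first and -1.92 ± 0.33 (SE, adjusted p = 0.566) for the second, so neither passed the threshold of 0.05. The ratio between the entries ranged from 269 to 542 over the libraries. In the authors' deposited table of 6 knockdown against 6 wild-type libraries, these entries had the lowest z scores of all 18697, -9.745 with a deposited p of 9.9e-23 and -6.895 with a deposited p of 2.77e-12, a comparison that takes each library as independent.

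The second 7SL entry passed when culture was left out of the limma model, with an adjusted p of 0.0344, and with the replicate number as a block across genotypes, with an adjusted p of 0.0270. These were the only 2 passes among 15 other settings. The former takes the libraries of a culture as independent, and the latter pairs numbers that were not paired between genotypes. TTX moved neither 7SL entry past the threshold: the log2 change over both genotypes was -0.01 for the first. Of the 6 listed mRNAs for proteins of the signal recognition particle 5 were tested, and in limma none passed in the knockdown, with a median log2 difference of -0.06. Srp68 had the lowest at -0.40, and the others lay between -0.06 and 0.05. For Srp68 wild-type libraries were at 591, 634 and 1080 untreated and at 1189, 559 and 1369 with TTX. Its knockdown libraries were at 519 to 784, within the wild-type spread or below it. The summed level of the 5 tested mRNAs was 4573 to 4996 read equivalents in wild-type and 4214 to 5033 in knockdown, so the genotypes overlapped. Protein was not measured.

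Over all entries the knockdown passed the threshold nowhere: 0 of 12938 (0%), and so 0 of 131 members, in untreated cultures, in cultures with TTX, over both, and for the interaction of knockdown and TTX. At an unadjusted p under 0.05 in limma, 22 members passed in untreated cultures, where 6.21% of all entries did, 20 in TTX, where 8.48% did, 20 over both, where 7.28% did, and 10 for the interaction, where 3.76% did. Over both treatments the genotypes did not overlap for 3 members, all lower in knockdown: the 2 entries of 7SL and Fam98c. Among all entries 1.07% were lower without overlap and 0.881% higher. In untreated cultures the genotypes did not overlap for 8 members higher in knockdown, where 4.92% of entries did so, and for 14 lower, where 4.65% did. With TTX they did not for 5 higher, where 6.47% did, and for 14 lower, where 6.72% did.

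Rmrp (NR_002703) varied between cultures of the same genotype. The table calls it Rmrp, the RNase MRP RNA, whereas RefSeq now gives its accession the symbol Rpph1, that of the RNase P RNA. RefSeq's type for it is RNase MRP RNA, with Rmrp as a synonym. The type goes with the table's name and the symbol does not, so which of these related RNAs it holds is uncertain. Wild-type libraries measured 79699, 80676 and 62034 read equivalents untreated and 43314, 164560 and 65312 with TTX, and knockdown libraries 16936, 32763 and 82971 untreated and 32254, 42443 and 143586 with TTX. Knockdown culture 3 stood within the wild-type range, and the other knockdown cultures lay below all wild-type libraries. The knockdown log2 difference was -0.73 ± 0.63 (SE, limma, adjusted p = 0.813). None of the 10 tested mRNAs for proteins of RNase P and MRP passed in limma, and their median log2 difference was 0.05.

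Terc, the telomerase RNA, measured 254, 128 and 154 in untreated wild-type and 164, 164 and 162 with TTX, and 43.3, 91.4 and 171 in untreated knockdown and 68.6, 87.1 and 216 with TTX. As for Rmrp, knockdown culture 3 was the highest of its genotype and overlapped wild-type. The log2 difference was -0.77 ± 0.44 (SE, limma, adjusted p = 0.731).

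Bc1 did not follow genotype. It measured 27009, 105778 and 19110 in untreated wild-type and 12752, 148150 and 27604 with TTX, against 33873, 64796 and 70314 in untreated knockdown and 32156, 46232 and 67478 with TTX. Wild-type culture 2 was highest in both treatments, and the highest library stood 11.6-fold above the lowest, both of them wild-type with TTX. The log2 change with TTX was -0.12 ± 0.22 (SE, limma, adjusted p = 0.761) and the knockdown difference 0.41 ± 0.72 (SE, limma, adjusted p = 0.911).

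**Figure D1:**
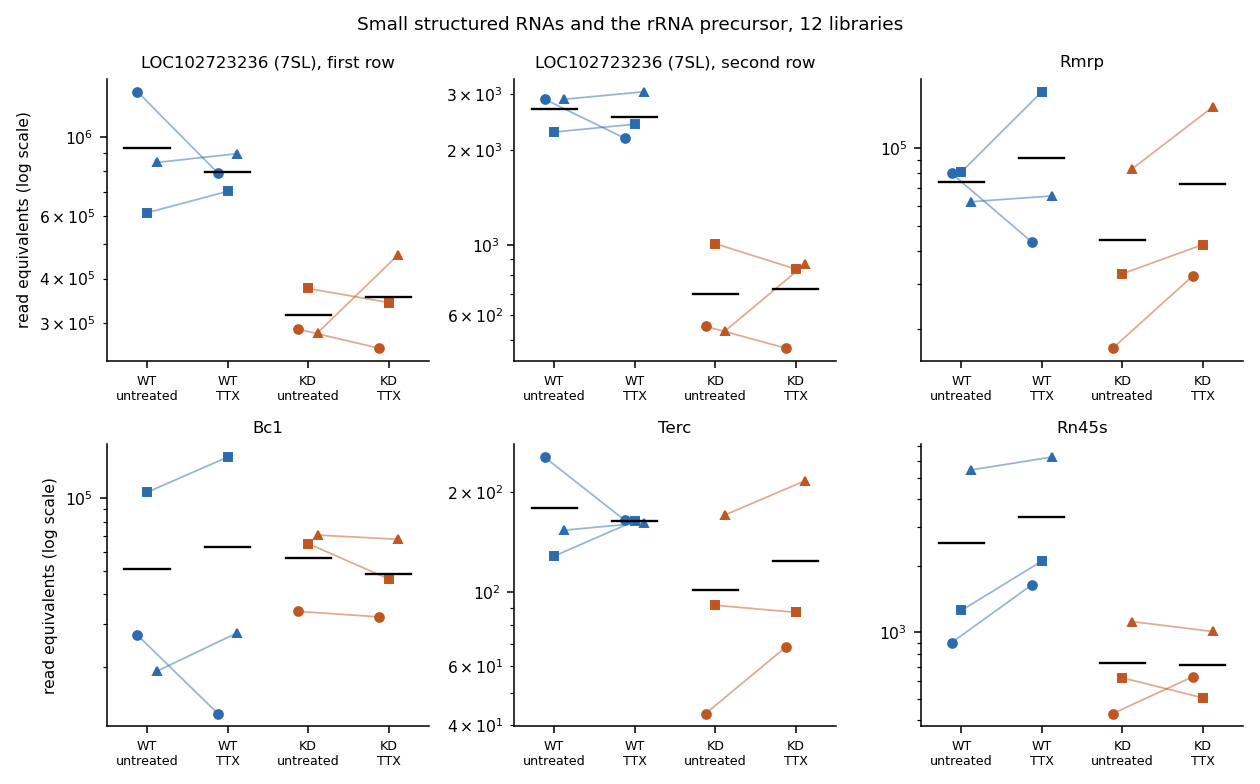
Level of the structured and ribosomal RNAs in read equivalents on a log axis, 1 point a library, for wild-type (blue) and knockdown (orange); circle, square and triangle are replicates 1, 2 and 3, lines join the untreated and TTX library of a culture, and black bars are group means. Both 7SL entries separate the genotypes, Bc1 does not, and wild-type culture 3 is the highest in Rn45s.

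The 4 ribosomal RNAs are what remained after the rRNA removal step named in the labels, and they took 0.00450% to 0.0638% of read equivalents. Rn45s, the precursor, measured 900, 1258 and 5442 in untreated wild-type and 1647, 2104 and 6223 with TTX, and 429, 623 and 1120 in untreated knockdown and 632, 506 and 1011 with TTX. Wild-type culture 3 was the highest, and knockdown culture 3 was the highest knockdown library untreated and with TTX, overlapping the lowest wild-type library. Rn28s measured 285, 197 and 2315, then 1018, 843 and 2846 in wild-type, and 104, 240 and 109, then 339, 196 and 196 in knockdown.

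Knockdown log2 differences were -1.74 ± 0.55 (SE, adjusted p = 0.652) for Rn45s, -1.54 (adjusted p = 0.655) for Rn18s, -2.18 (adjusted p = 0.655) for Rn28s and -1.52 (adjusted p = 0.652) for Rn5-8s in limma. All 4 were lower in knockdown, none past the threshold. With the replicate number as a block in place of the culture Rn45s, Rn18s and Rn5-8s each had an adjusted p of 0.0270, but numbers were not paired between genotypes. The ratio of Rn18s to Rn28s ran from 0.602 to 9.20 over the libraries, so these RNAs did not keep one proportion. The part that uneven removal of rRNA had in these values was not tested.

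**Figure D2:**
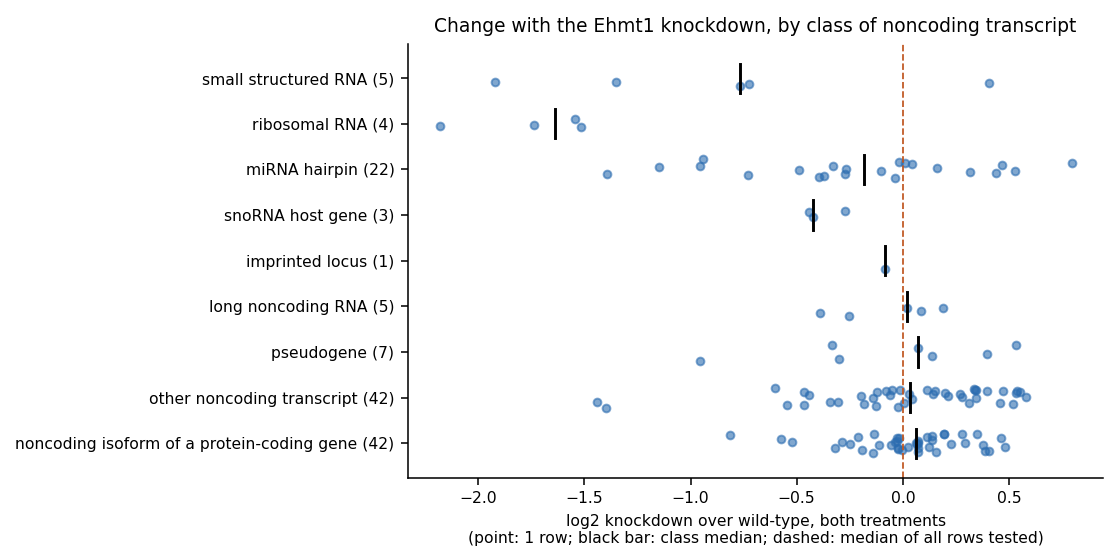
Log2 knockdown over wild-type across both treatments for each of the 131 entries, grouped by class with the number of entries; each point is 1 entry, black bars are class medians and the dashed line is the median of all entries tested. All 4 ribosomal RNAs (median -1.64) lie left of 0. Of the 5 small structured RNA entries (median -0.77), 4 lie left of 0 and 1, Bc1, lies right of it. These 5 entries stand for 4 gene symbols. Noncoding isoforms (median 0.06) lie around 0.

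Class medians in the knockdown were -1.64 for ribosomal RNAs, -0.77 for small structured RNAs, -0.42 for snoRNA host genes, -0.19 for hairpins, 0.02 for long noncoding RNAs and 0.06 for noncoding isoforms. The median was -0.02 over members and 0.003 over all entries tested. Among cell-type markers, the oligodendrocyte lineage had a median of -1.18 (6 of 8 lower) with sums of 31694 to 55982 in wild-type and 22284 to 41103 in knockdown. Knockdown culture 1 stood apart in this list, chiefly in genes of oligodendrocyte precursors. Sox10 was at 26.4 in both of its libraries and at 522 to 633 in knockdown cultures 2 and 3, and Pdgfra at 398 and 440 against 7651 to 8572. Without that culture the median was -0.13 (5 of 8 lower), a setting chosen after seeing the data. Microglial markers had a median of -1.81 over the 3 of 6 tested, or -0.91 without wild-type culture 3 and -2.77 without wild-type culture 2, with sums of 10.2 to 131 in wild-type and 11.3 to 19.8 in knockdown. Neuron markers had a median of 0.45 (6 of 6 higher). Without knockdown culture 1 the log2 difference of the second 7SL entry was -1.71. None of these markers passed in limma in the knockdown, and no marker on these lists was at 0 in all 12 libraries. The microglial marker C1qa was at 0 in every knockdown library and at 0 to 35.7 in wild-type. Cx3cr1 was at 0 in every untreated knockdown library. C1qa and Aif1 met the filter only through wild-type libraries. The part of these markers in the differences of the noncoding RNAs was not tested.

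Of the 22 hairpins 8 were higher and 14 lower in knockdown, and none passed. RefSeq places 20 of them across another annotated gene, 16 across a protein-coding gene and 11 on the same strand as the gene they overlap. Mir2985 lies in Gria2, which encodes a glutamate receptor subunit, Mir3064 in Ddx5, an RNA helicase gene, Mir6321 in Rufy3, Mir1306 in Dgcr8, a gene of microRNA processing, and Mir770 in Meg3. The sources used here do not say whether the authors' counting used strand, so coverage of a hairpin and of RNA from the other strand may not be told apart.

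At the miR-9 loci hairpins on both strands had lower values in knockdown. Mir9-1 measured 39.9, 46.1 and 39.5 in untreated wild-type and 31.5, 21.6 and 46.5 with TTX, against 12.7, 25.6 and 16.2 and then 14.0, 23.1 and 21.6 in knockdown. Untreated genotypes did not overlap, and those with TTX did. Its log2 difference was -1.21 untreated and -0.96 ± 0.36 (SE, limma, adjusted p = 0.659) over both treatments. Mir3597-1, opposite to it, measured 104, 94.2 and 93.2, then 71.2, 68.2 and 99.0 in wild-type, and 30.7, 71.4 and 57.0, then 41.0, 58.9 and 66.5 in knockdown, a log2 difference of -0.73 ± 0.29 (SE, limma, adjusted p = 0.664). The ratio of Mir3597-1 to Mir9-1 was 2.05 to 3.52 in every library, a narrower range than either hairpin's own.

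The other loci were lower in coverage. Mir3597-2 measured 33.1, 15.8 and 36.6, then 36.7, 7.29 and 22.7 in wild-type, and 6.56, 16.6 and 4.73, then 7.98, 5.62 and 9.63 in knockdown. Mir3597-3 measured 43.5, 31.1 and 27.0, then 18.7, 30.2 and 31.6 in wild-type, and 5.95, 24.6 and 15.6, then 7.95, 25.0 and 22.5 in knockdown. Both overlapped between genotypes, with log2 differences of -1.40 ± 0.67 (SE, limma, adjusted p = 0.693) and -0.94 ± 0.48 (SE, limma, adjusted p = 0.705). Among knockdown libraries of Mir3597-2 only that at 16.6 reached 10 read equivalents. This hairpin thus met the filter through wild-type libraries, where it was higher, and its difference is given only as a description.

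**Figure D3:**
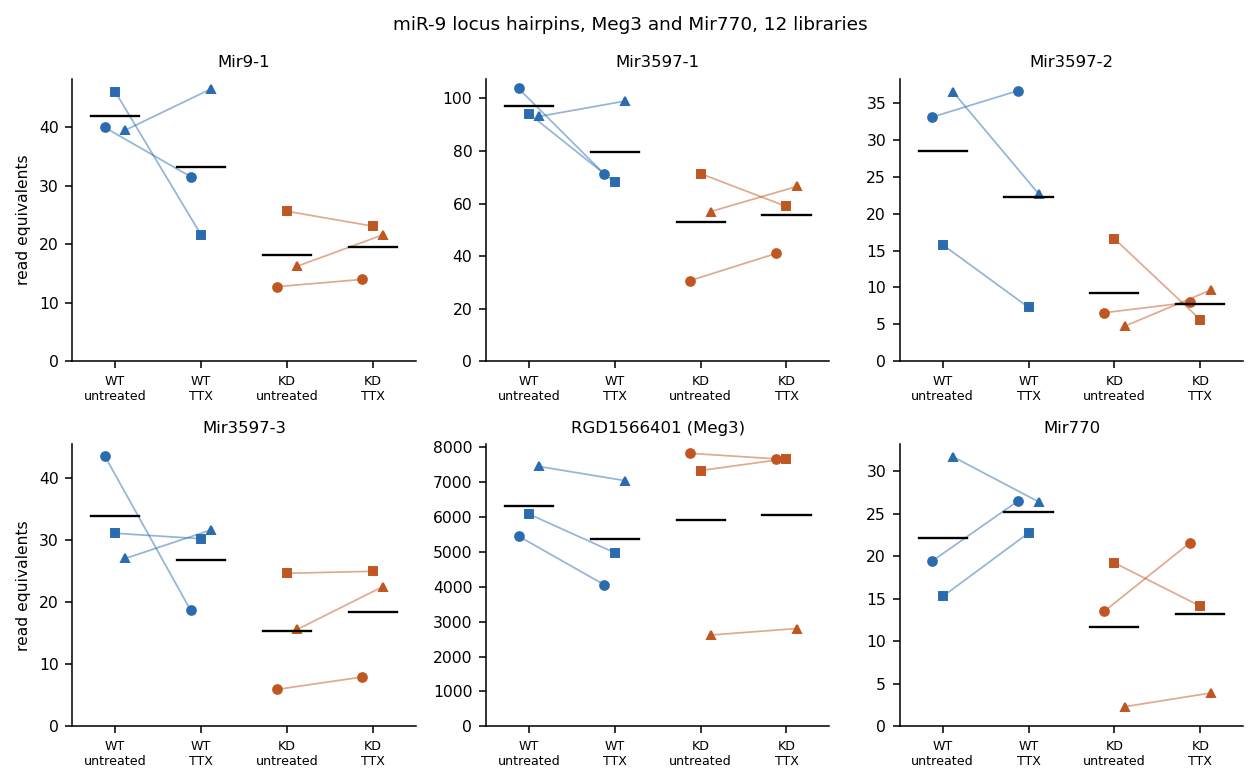
Level of 4 hairpins of the miR-9 loci, of Meg3 and of Mir770 in read equivalents on a linear axis from 0, 1 point a library, with colours, symbols, lines and bars as for the structured RNAs. Knockdown points of Mir9-1 lie between 12.7 and 25.6, and knockdown culture 3 (triangles) is the lowest in both Meg3 and Mir770.

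Mir6321 was the hairpin with the highest values and stood higher in knockdown: 201, 165 and 158, then 173, 171 and 167 in wild-type, against 302, 296 and 196, then 264, 276 and 181 in knockdown. Knockdown culture 3 was again apart from the other cultures of its genotype, and only it overlapped wild-type. The log2 difference was 0.53 ± 0.17 (SE, limma, adjusted p = 0.652). Mir762, which lies antisense to Bcl7c, had the highest log2 difference of the members at 0.80 ± 0.37 (SE, limma, adjusted p = 0.690). Of the 8 listed mRNAs for proteins of microRNA processing 7 were tested, 6 of them lower in knockdown, with a median of -0.08 and none past the threshold in limma.

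Mir22 was the hairpin that fell with TTX. It measured 22.8, 35.0 and 23.3 in untreated wild-type and 14.5, 24.4 and 12.8 with TTX, and 27.97, 15.6 and 28.8 in untreated knockdown and 26.3, 13.6 and 17.6 with TTX. The groups overlapped because cultures differ, but it was lower with TTX in 6 of 6 cultures. Over both genotypes the log2 change was -0.48 ± 0.09 (SE, limma with culture as a term, adjusted p = 0.0240), and at 12.8 to 35.0 read equivalents its precision is limited by few reads. It passed under 8 of 15 other settings.

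TTX called more members than the knockdown. In wild-type cultures 6 of 131 members passed, where 3.21% of all entries did: 1 was higher, where 0.819% of entries were, and 5 were lower, where 2.39% were. In knockdown cultures 2 passed, where 0.642% of entries did: both were lower, where 0.549% of entries were, and 0 higher in limma, where 0.0928% were. Over both genotypes 18 members passed, where 13.7% of all entries did: 5 were higher, where 5.59% of entries were, and 13 lower, where 8.07% were. The share of members called was thus near that of all entries, and the median log2 change was -0.01 over members and 0.02 over all. At an unadjusted p under 0.05 in limma, 31 members passed in wild-type (24.3% of all entries), 24 in knockdown (18.6%) and 32 over both (31%). Untreated and TTX libraries did not overlap for 4 members higher with TTX and 8 lower in wild-type, where 4.79% and 6.61% of entries did so, and for 5 higher and 5 lower in knockdown, where 3.75% and 4.63% did. These contrasts share libraries. They also rest on culture as a term in the model: without it no member passed in any of the 3.

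The TTX response also moved cell-type markers: 4 of 6 neuron markers fell over both genotypes, among them Snap25 by 0.61 on the log2 scale, with a median of -0.34 and none rising, 3 of 7 GABAergic markers fell with a median of -0.38, and 2 of 5 glutamatergic markers fell with a median of -0.24. Of the dividing progenitor markers 2 of 5 rose, Mki67 by 0.52 and Top2a by 0.39 on the log2 scale, with a median of 0.15, and of the oligodendrocyte lineage 1 of 8 rose, Olig1 by 0.30, with a median of 0.09. Astrocyte markers had a median of 0.19 with 0 of 6 past the threshold in limma, and microglial markers 0.56 with 0 of 3. The part that these shifts had in the members' changes was not tested.

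**Figure D4:**
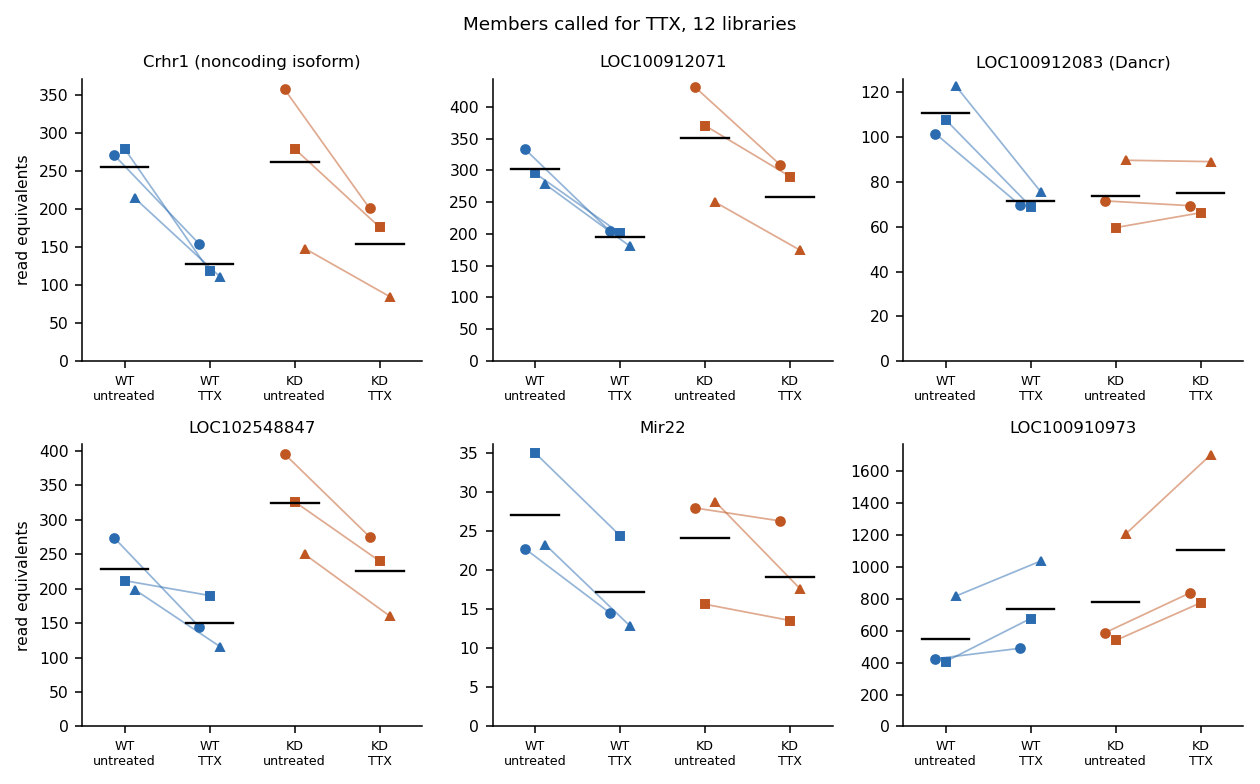
Level of 6 members called for TTX in read equivalents on a linear axis from 0, 1 point a library, with colours, symbols, lines and bars as for the structured RNAs. All lines slope down for Crhr1, LOC100912071, LOC102548847 and Mir22 and up for LOC100910973, and Dancr slopes down in the wild-type cultures.

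LOC100912071 (NR_131097), a long noncoding RNA, fell with TTX in every culture. It measured 334, 296 and 278 in untreated wild-type and 204, 201 and 180 with TTX, and 431, 370 and 250 in untreated knockdown and 309, 290 and 174 with TTX. In wild-type the treatments did not overlap, whereas in knockdown the low culture 3 made them overlap. Log2 changes were -0.63 ± 0.07 (SE, adjusted p = 0.0193) in wild-type, -0.45 (adjusted p = 0.0541) in knockdown and -0.54 ± 0.05 (SE, adjusted p = 0.00475) over both in limma. Its RefSeq neighbour Pgm2l1 lies 415 bp away on the opposite strand and encodes an enzyme of sugar phosphate metabolism. Pgm2l1, with a mean of 6705 read equivalents, fell by 0.45 on the log2 scale (SE 0.07, limma, adjusted p = 0.0169).

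LOC102548847 (NR_110712) fell as well, from 273, 212 and 198 to 144, 190 and 116 in wild-type and from 396, 326 and 250 to 275, 240 and 160 in knockdown. The treatments did not overlap in wild-type, and in knockdown they did. The log2 change over both was -0.57 ± 0.10 (SE, limma, adjusted p = 0.0217). Its neighbour Ptprn2, 158 bp away on the opposite strand, encodes a protein of dense-core vesicles and had a log2 change of -0.17 ± 0.06 (SE, limma, adjusted p = 0.127).

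LOC100910973 (NR_102352) was the long noncoding RNA that rose. It measured 424, 407 and 817 in untreated wild-type and 490, 676 and 1037 with TTX, and 588, 539 and 1207 in untreated knockdown and 838, 775 and 1703 with TTX. Culture 3 was highest in both genotypes, so the groups overlapped, but all 6 cultures were higher with TTX. Over both genotypes the log2 change was 0.47 ± 0.08 (SE, limma, adjusted p = 0.0160), and its other entry, NR_102351, which covers nearly the same bases at a ratio of 1.01 to 1.09, changed by 0.49 (limma, adjusted p = 0.0174). No annotated gene overlaps it in RefSeq.

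Among snoRNA host genes Dancr, listed as LOC100912083, fell with TTX in wild-type. It measured 102, 108 and 123 untreated and 69.5, 69.0 and 75.6 with TTX, without overlap, a log2 change of -0.62 ± 0.07 (SE, limma, adjusted p = 0.0203). In knockdown it was at 71.5, 59.6 and 89.7 untreated and at 69.4, 66.3 and 89.1 with TTX, a log2 change of 0.03 (limma, adjusted p = 0.863). Untreated knockdown libraries thus lay below the untreated wild-type libraries and within 59.6 to 89.7, around the values of wild-type with TTX. The difference between these TTX changes, 0.66 ± 0.10 (SE), had an unadjusted p of 0.000544 in limma but an adjusted p of 0.747 over all entries, so it did not pass. The untreated knockdown difference was -0.60 ± 0.17 (SE, limma, adjusted p = 0.714).

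Gas5, a growth-arrest transcript that hosts many snoRNAs, measured 626, 813 and 468, then 555, 655 and 451 with TTX in wild-type, and 325, 351 and 561, then 369, 429 and 615 with TTX in knockdown. Knockdown culture 3 overlapped wild-type and the other knockdown cultures lay below it. The log2 difference was -0.44 ± 0.22 (SE, limma, adjusted p = 0.693), and the TTX changes were -0.18 in wild-type and 0.20 in knockdown. Snhg4, the remaining named host, ranged from 13.5 to 62.9. RefSeq places annotated snoRNAs inside 7 members' loci, 5 of them not among the named hosts. One of these, LOC100909675 around Snord93, measured 143, 206 and 170 in untreated wild-type and 101, 127 and 119 in untreated knockdown without overlap, a log2 difference of -0.57 ± 0.16 (SE, limma, adjusted p = 0.714), and it was named after its values were seen. Of the 8 listed mRNAs for proteins of snoRNA particles 7 were tested, with a median of -0.08 in the knockdown and none past the threshold in limma.

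Meg3, listed as RGD1566401, was abundant at 5443, 6074 and 7434 in untreated wild-type and 4049, 4968 and 7030 with TTX. Knockdown libraries held 7810, 7319 and 2615 untreated and 7653, 7659 and 2800 with TTX. Libraries of knockdown cultures 1 and 2, at 7319 to 7810, lay near or above the top of the wild-type range of 4049 to 7434, with 1 of them inside it, and knockdown culture 3 was below all of it. The mean log2 difference of -0.08 ± 0.35 (SE, limma, adjusted p = 0.962) therefore averages cultures on either side of wild-type. TTX gave -0.27 in wild-type (limma, adjusted p = 0.130).

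Mir770, inside Meg3, was also lowest in knockdown culture 3. It measured 19.4, 15.3 and 31.7, then 26.5, 22.7 and 26.4 in wild-type, and 13.5, 19.2 and 2.32, then 21.6, 14.1 and 3.93 in knockdown, with a log2 difference of -1.15 ± 0.56 (SE, limma, adjusted p = 0.696). The ratio of Meg3 to Mir770 ran from 153 to 1128. The highest ratio was in untreated knockdown culture 3, where Mir770 was at 2.32. Few reads of the hairpin limit this range, so whether it followed the transcript in proportion cannot be judged. Of 13 listed protein-coding genes of imprinted loci 11 were tested, with a median of 0.25 and none past the threshold in the knockdown in limma. With TTX 1 rose, Dio3 by 0.57, and 2 fell, Kcnk9 by 0.65 and Snrpn by 0.38, on the log2 scale.

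Miat, a nuclear RNA of neurons, shared the low knockdown culture 3. It measured 17265, 16538 and 15390, then 16066, 18265 and 18781 in wild-type, and 13113, 20047 and 6493, then 15165, 23244 and 7882 in knockdown, a log2 difference of -0.39 ± 0.31 (SE, limma, adjusted p = 0.798). Oip5-as1, listed as LOC100910827, ranged from 7680 to 17114 with a log2 difference of -0.25 ± 0.39 (SE). Tug1 was steadier, at 4500 to 6109, with a log2 difference of 0.09 ± 0.16 (SE). Ftx, a transcript near Xist, ranged from 101 to 194 with a log2 difference of 0.02.

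Most of the TTX calls were noncoding isoforms: 12 of the 18, of which 3 were higher and 9 lower. Isoforms made up 42 of the 131 members. Crhr1, Ercc8 and Flot2 each count with both of their entries, as LOC100910973 does among the other calls. Such entries share coverage, so these calls are not separate. Crhr1, the receptor of corticotropin-releasing hormone, gave the steepest fall. Its NR_126013 entry measured 270, 279 and 214 in untreated wild-type and 154, 118 and 111 with TTX, and 357, 279 and 148 in untreated knockdown and 201, 176 and 84.5 with TTX. It fell by 1.00 in wild-type (SE 0.10, adjusted p = 0.0159), by 0.76 in knockdown (SE 0.10, adjusted p = 0.0377) and by 0.88 over both (SE 0.07, adjusted p = 0.00353) on the log2 scale in limma. The coding entry NM_030999 fell by the same 0.88 over both.

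The 2 entries of Crhr1, NR_126013 and NR_126014, were the members called in knockdown cultures. Nsmf, a messenger from synapse to nucleus, went from 6886, 6723 and 5877 to 4403, 5463 and 4413 in wild-type and from 8743, 6899 and 7275 to 6461, 5675 and 4654 in knockdown. Within each genotype its treatments did not overlap, and its log2 change was -0.45 (limma, adjusted p = 0.0152). Gcgr, the glucagon receptor gene, rose from 6.41, 8.56 and 6.60 to 10.3, 13.5 and 13.3 in wild-type and from 6.56, 9.44 and 8.57 to 11.8, 13.9 and 18.9 in knockdown. All 6 TTX libraries lay above all 6 untreated ones, although values are near 10 reads, and the log2 change was 0.74 ± 0.09 (SE, limma, adjusted p = 0.00811). No untreated library of Gcgr reached 10 read equivalents. Gcgr met the filter and the threshold on the mean only through its TTX libraries, so its separation and p-value are not independent of that choice.

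RGD1559747, for which the table has no coding entry, went from 129, 167 and 144 to 86.9, 99.9 and 110 in wild-type and from 138, 117 and 136 to 116, 114 and 99.5 in knockdown. All TTX libraries lay below all untreated ones, and the log2 change was -0.40 ± 0.07 (SE, limma, adjusted p = 0.0224). Smaller changes passed for Atp2a2, the calcium pump of the endoplasmic reticulum, which fell by 0.31 (adjusted p = 0.0335), Ercc8, a DNA repair gene, whose 2 entries fell by 0.24 and 0.25, Flot2, a membrane scaffold gene, whose 2 entries fell by 0.25, Patz1 (NR_102354), a transcription factor gene, which rose by 0.25, and Szrd1, which rose by 0.19, on the log2 scale in limma. For Patz1 the treatments did not overlap either, so of the 18 called members 3 separated all TTX from all untreated libraries, where among all entries 0.271% did so upward and 0.788% downward. Gcgr, 1 of these 3, met the filter only through its TTX libraries.

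These isoform values are not separate from those of the mRNA. For 37 entries of 29 genes a coding entry is in the table, and the noncoding to coding ratio of means had a median of 0.996, with 35 of 37 between 0.5 and 2. Across the 12 libraries Pearson's r of log2 levels exceeded 0.9 for 35 of 37, with a median of 0.999, given as a description because both entries cover shared exons of the same libraries. The exceptions were P2rx3, an ATP-gated channel gene, whose noncoding entry was 3.35 times the coding one with r of 0.133, and Patz1 NR_102354, at a ratio of 0.145 with r of 0.801. A change of a noncoding isoform in this table is therefore a change of coverage that it shares with the mRNA, except where the ratio itself differs.

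**Figure D5:**
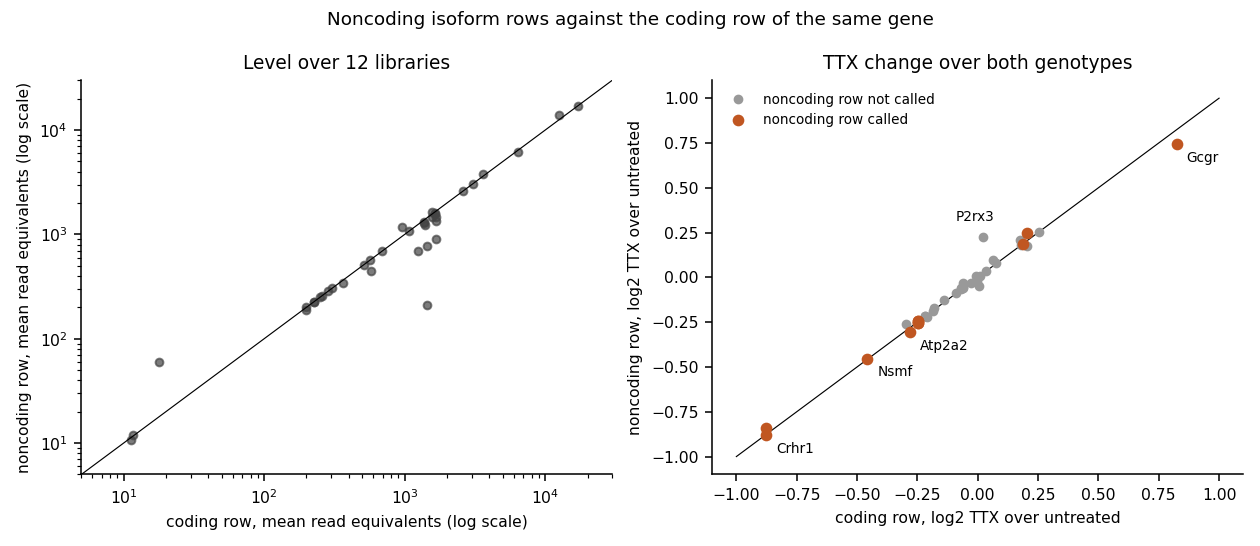
Mean level of each noncoding isoform against the coding entry of the same gene, in read equivalents on log axes, 1 point an entry, with the line of equal levels. Of 37 points 35 lie within a ratio of 0.5 to 2, and P2rx3 (3.35) and Patz1 (0.145) lie off the line.

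In the knockdown, too, isoforms moved with their mRNAs. Vegfa, the endothelial growth factor gene, measured 3929, 4615 and 2322, then 3324, 3574 and 2103 in wild-type, and 1751, 2669 and 1454, then 1612, 2201 and 1490 in knockdown. The genotypes overlapped through wild-type culture 3, and the log2 difference was -0.81 ± 0.24 (SE, limma, adjusted p = 0.652) for the noncoding and -0.81 for the coding entry. Nnat, the imprinted neuronatin gene, measured 14579, 12938 and 12844, then 14282, 16913 and 14277 in wild-type, and 17012, 16793 and 18606, then 22348, 21988 and 21902 in knockdown, a log2 difference of 0.46 ± 0.13 (SE, limma, adjusted p = 0.652). Within each treatment the genotypes did not overlap for Nnat.

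Fam98c was the member besides 7SL whose genotypes did not overlap, at 429, 327 and 314, then 291, 331 and 343 in wild-type, and 218, 261 and 280, then 195, 249 and 212 in knockdown. The log2 difference was -0.52 ± 0.21 (SE, limma, adjusted p = 0.664). Of the 8 listed genes of nonsense-mediated decay, which destroys many isoforms with early stop codons, 5 were tested, none passing in the knockdown in limma, and 1 rose with TTX, Upf2 by 0.31 on the log2 scale (limma, adjusted p = 0.0213).

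Among the remaining transcripts, LOC100909539 had the lowest knockdown value. Its NR_110700 entry measured 57.0, 33.1 and 28.7, then 57.0, 23.5 and 28.7 in wild-type, and 5.79, 14.1 and 25.1, then 8.85, 9.15 and 22.4 in knockdown. Only one knockdown library exceeded the lowest wild-type library, and the log2 difference was -1.44 ± 0.46 (SE, limma, adjusted p = 0.652). Its neighbour Sema5a, an axon guidance gene 155 bp away, had a log2 difference of -1.59 ± 0.50 (SE, limma, adjusted p = 0.652). RefSeq also places Snord123 within LOC100909539.

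The pseudogene Ybx1-ps3 measured 551, 648 and 401, then 477, 603 and 460 in wild-type, and 936, 655 and 796, then 882, 557 and 725 in knockdown, a log2 difference of 0.53 ± 0.19 (SE, limma, adjusted p = 0.655). Reads of a processed pseudogene and of its parent gene may be split between them by the counting, so its level is uncertain. Prrc2c (NR_111961), which RefSeq calls a transcribed pseudogene and for which the table has no coding entry, was at 1507 to 2188. LOC100911367 was at 12.7 in untreated wild-type culture 1 and at 49.3 to 75.5 in every other library, so its TTX and knockdown values rest on that library.

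The mRNAs for 6 proteins of the 7SK particle, which holds back transcription elongation, and for 6 paraspeckle proteins had median log2 differences of -0.07 and -0.03 in the knockdown and changes of 0.14 and 0.13 with TTX, with 0 past the threshold in limma in either comparison. No entry for the RNAs of these particles is among the members.

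In the authors' deposited table of all knockdown against all wild-type libraries, 39 of 138 entries with the members' accessions had a deposited p under 0.05, or 28.3%, against 15.5% of all 18697. That table takes the libraries of a culture as independent. In the authors' deposited tables for one treatment the shares were 13.0% against 3.75% untreated and 12.3% against 6.43% with TTX. For TTX they were 5.07% against 4.05% in wild-type and 2.90% against 2.96% in knockdown. The shares over all entries take in low entries, whereas all members passed the limma filter. Of the 18697 entries 5759 failed it. The 138 also hold entries of the members' accessions that are not members. These shares are thus of unlike sets, and the part that level had in their differences was not tested.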

How the data were processed

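The members and lists were chosen with earlier results of these data known. Per the labels' protocols, total RNA was depleted of rRNA and made into strand-specific libraries; which tools made the table is known from the submitters' processing notes, where GSNAP, DESeq2, DESeq and rn6 appear with no version. Each deposited signal value is coverage added up along a transcript, after a size factor of the authors, as read from the steps between values. The authors' deposited z score and deposited p-value come with no statement of the model. Division by the read length of 42 nt gave read equivalents, which limma 3.58.1 (R 4.3.3) fitted as log2(value + 1). A minimum of 10 read equivalents in any 3 libraries kept 12938 of 18697 entries, and p-values were adjusted by Benjamini-Hochberg over all of them (two-sided, threshold 0.05). All 131 members passed this filter. The fits were also run on simulated data with known changes. There the spread between cultures was a fixed multiple of that within them for every entry, a simpler setting than these data. No result here rests on that run.

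TTX contrasts and the interaction had culture as a term (4 residual degrees of freedom). Knockdown within a treatment used the 4 groups alone (8 residual degrees of freedom). Knockdown over both treatments had culture as a random block (correlation 0.717). Deviations of same-numbered untreated and TTX libraries correlated at 0.45, 0.62 and 0.85 in wild-type and 0.78, 0.70 and 0.77 in knockdown, so they were paired; between genotypes all 6 correlations were negative. Named were members called in any of the 7 comparisons, the 5 highest and 5 lowest log2 changes in each, the 10 highest means, 7SL, those next to the threshold, and class lists. Alternatives changed the block, filter, scaling, pseudocount, duplicate symbols and libraries.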

Additional observations from a re-analysis of the deposited data

Results flagged for a closer look

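For 5 of 131 members (3.82%) the TTX change had one sign in all 3 wild-type cultures and the opposite sign in all 3 knockdown cultures, as it did for 1.58% of the 12938 entries tested. The difference between the changes, knockdown minus wild-type, was tested in limma and passed for none, each with an adjusted p of 0.971. Gas5 had a difference of 0.38 on the log2 scale, lower with TTX in wild-type cultures by 0.05 to 0.31 and higher in knockdown by 0.13 to 0.29. LOC100911177, whose locus in RefSeq holds Snord12, differed by 0.33, from 898, 1138 and 640 to 749, 969 and 575 read equivalents in wild-type and from 787, 593 and 896 to 800, 684 and 972 in knockdown. Alg3, a noncoding isoform of a glycosylation gene, differed by 0.18.

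The ribosomal Rn18s differed by -0.41 and Rn5-8s by -0.61, higher with TTX in wild-type cultures and lower in knockdown. For Rn5-8s the smallest changes were 0.02 in wild-type culture 3 and -0.01 in knockdown culture 3, so its sign there is a matter of a small difference.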

How the results depend on the processing

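Counts of members called with TTX depended on pairing. The counts here are of members alone, without the share of all entries called under the same setting. They therefore do not tell a change in the members from a change over all entries. Without the culture term, 0 members passed in wild-type (6 with it), 0 in knockdown (2) and 0 over both (18). With culture as a random replicate block, 7 passed in knockdown. A variance trend with robust fitting gave 11 in wild-type and 10 in knockdown, and no filter gave 0 in knockdown. With 1 entry per symbol, 1 passed in knockdown and 8 over both. For the knockdown over both treatments the count was 0, but 1 without a block, and 5 with the replicate number as a block, a pairing the data did not bear out. Leaving out 1 culture gave 0 to 4 in wild-type (1 without wild-type culture 2, 0 without 3), 0 to 0 in knockdown without any one, and 3 to 20 over both (5 without wild-type culture 3, and 3, 7 and 4 without knockdown cultures 1, 2 and 3); knockdown and interaction counts stayed at 0. The cause was not tested; fewer cultures leave fewer residual degrees of freedom.

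No named value changed sign under another setting that kept all libraries. Leaving out 1, 3 did: LOC100911367 with TTX in wild-type, 0.63, became -0.10 without wild-type culture 1, and its untreated knockdown difference, 0.79, became -0.025 without that library and ranged up to 1.21 over libraries left out. RT1-CE6 in knockdown over both, 0.54, became -0.037 without wild-type culture 1. Upper-quartile scaling moved the median of all entries by under 0.1 in each comparison. Hairpins near 10 read equivalents are limited by few reads.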
